A study of Homo sapiens with 15 samples.

Results

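SLC44A2, ZNF185, GPNMB, ARRDC3, KCTD12, and MGP are the 6 genes, of 19612 gene symbols in the deposited table, that had an adjusted p under 0.05 between osimertinib-treated and vehicle-treated H1975–OR cells in an edgeR fit. They were chosen on that comparison, so their osimertinib-to-vehicle difference is given below as a description. The H1975 line comes from a human lung adenocarcinoma with mutant EGFR, and H1975–OR is a single subline of it made resistant by prolonged culture in osimertinib, an inhibitor of mutant EGFR. RNA from 3 separate passages per condition was sequenced for vehicle-treated H1975 (Samples 1a to 1c) and for H1975–OR in 4 states. These were vehicle (Samples 2a to 2c), 1,25(OH)2D3 at 100 nM (Samples 3a to 3c), osimertinib at 500 nM (Samples 4a to 4c), and the combination of these doses (Samples 5a to 5c), called both agents below. 1,25(OH)2D3 is the hormonally active form of vitamin D3. Treatment lasted 96 h in medium with charcoal-stripped serum, with doses at 0, 48, and 92 h. Per the labels H1975–OR cells were maintained in 500 nM osimertinib, and per the methods growth medium was replaced by treatment medium the day after plating, so the vehicle and 1,25(OH)2D3 groups come from cells whose maintenance drug was no longer added. When it was last present in them is not given in the sources used here, and H1975 cells treated with osimertinib are not analysed here.

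EGFR signals through the RAS–ERK and PI3K–AKT cascades, which drive growth of lung adenocarcinoma cells with mutant EGFR and change the transcription of many genes. The 6 genes belong to no single pathway. SLC44A2 encodes a choline transporter-like membrane protein, and GPNMB a transmembrane glycoprotein of melanosomes and lysosomes whose gene is a known target of the MITF/TFE transcription factors. ARRDC3 is an alpha-arrestin, an adaptor that binds NEDD4-family ubiquitin ligases and steers membrane receptors to degradation, and ZNF185 is a LIM-domain protein associated with actin. KCTD12 is an auxiliary subunit of GABA-B receptors, and MGP, matrix Gla protein, is a secreted, vitamin K-dependent inhibitor of calcification.

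A pair of promoter windows are shown because they hold the letters of factors known to act on these genes or downstream of EGFR. RefSeq promoters (GRCh38.p14, 250 bases before to 50 after a start) were matched for 5 of the 6 genes, with 10 windows in all. Both are printed on the strand of the gene, with the motif matches in capitals. In GPNMB (chr7:23246525-23246824, plus strand) the capitals mark 1 AP-1 motif (TGANTCA) 134 bases before the start, and the M-box (TCATGTG, read here on the opposite strand as CACATGA) 123 and 62 bases before it. In the inner ARRDC3 promoter (chr5:91380048-91380347, minus strand) they mark a forkhead motif (TGTTTAC) 29 bases before the start.

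GPNMB promoter: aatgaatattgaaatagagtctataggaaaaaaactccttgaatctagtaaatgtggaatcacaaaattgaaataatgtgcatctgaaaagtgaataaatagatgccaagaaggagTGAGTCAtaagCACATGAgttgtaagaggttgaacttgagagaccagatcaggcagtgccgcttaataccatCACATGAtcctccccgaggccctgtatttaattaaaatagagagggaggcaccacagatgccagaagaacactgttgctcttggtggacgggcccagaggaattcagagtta

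ARRDC3 inner promoter: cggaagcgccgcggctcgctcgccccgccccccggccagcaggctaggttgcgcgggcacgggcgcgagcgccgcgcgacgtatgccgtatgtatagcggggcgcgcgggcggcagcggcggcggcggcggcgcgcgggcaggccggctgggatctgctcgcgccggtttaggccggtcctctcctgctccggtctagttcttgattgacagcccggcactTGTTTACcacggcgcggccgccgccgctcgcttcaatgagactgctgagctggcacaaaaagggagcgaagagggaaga

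On both strands, the M-box stood in 2.92% of all 35116 RefSeq promoters, the forkhead motif in 3.42%, and the AP-1 motif in 7.71%. ZNF185 held a single AP-1 match, seen in a pair of overlapping windows. None of these letters, nor the E-box CACGTG (7.26% of promoters) or the ETS motif CCGGAAG (10.3%), were found in the windows of SLC44A2 or KCTD12, and the outer ARRDC3 window held none. The E-box and ETS motifs were in none of the 10 windows. These are matches of letters in short windows, not sites of binding.

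In the GENCODE annotation of GRCh38, SLC44A2 lies on chr19:10602457-10644557 (plus strand, 22 exons in its canonical transcript), ZNF185 on chrX:152898067-152973481 (plus, 25 exons), and GPNMB on chr7:23235967-23275108 (plus, 11 exons). ARRDC3 lies on chr5:91368631-91383317 (minus, 8 exons), KCTD12 on chr13:76880175-76886405 (minus, 1 exon), and MGP on chr12:14880864-14885857 (minus, 4 exons). Reads are summed over the transcripts of a gene, so the values do not tell which promoter was used.

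Estimated counts summed to between 4378033 and 6140025 per library, with a median of 4974768, and levels are given as CPM scaled by TMM over the 15 libraries. Sample 3a stood apart from the rest. Its correlation with any other library was at most 0.937, with Sample 5a, while each of the other libraries reached at least 0.958 with its nearest. It was left out of the fits, as in the study, and values with it are given beside those without. Of the 10 epithelial and lung markers, KRT18 lay between 1776 and 2917 CPM and the lung lineage factor NKX2-1 between 31.9 and 98.8 CPM, while NAPSA and SFTPB reached no more than 2.25 CPM. The junction proteins CDH1 and EPCAM averaged 243 and 151 CPM in H1975 but 6.93 and 11.6 CPM in vehicle-treated H1975–OR. The summed level of the 10 was between 4603 and 5959 CPM in H1975, between 3571 and 4407 CPM in H1975–OR without osimertinib, and between 3272 and 4357 CPM with it. Of the 8 fibroblast markers 3 had at most 10 counts in every library, among them FAP and THY1, while COL3A1 reached 160.4 CPM. The summed level of the 8 was between 14.4 and 18.9 CPM in H1975, between 55.6 and 165.0 CPM in H1975–OR without osimertinib, and between 44.8 and 186.3 CPM with it. Of the 9 leukocyte markers 6 had at most 10 counts in every library and CD3E was at 0 throughout. CD68 was found in every library, at 4.71 to 38.6 CPM, and CD14 reached 50.8 CPM in Sample 3a. The summed level of the 9 was between 38.4 and 54.5 CPM in H1975. In H1975–OR it was between 15.9 and 63.7 CPM without osimertinib and between 11.3 and 31.7 CPM with it. All these ranges of marker levels include Sample 3a. The part of such transcripts in the results below was not tested.

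**Figure D1:**
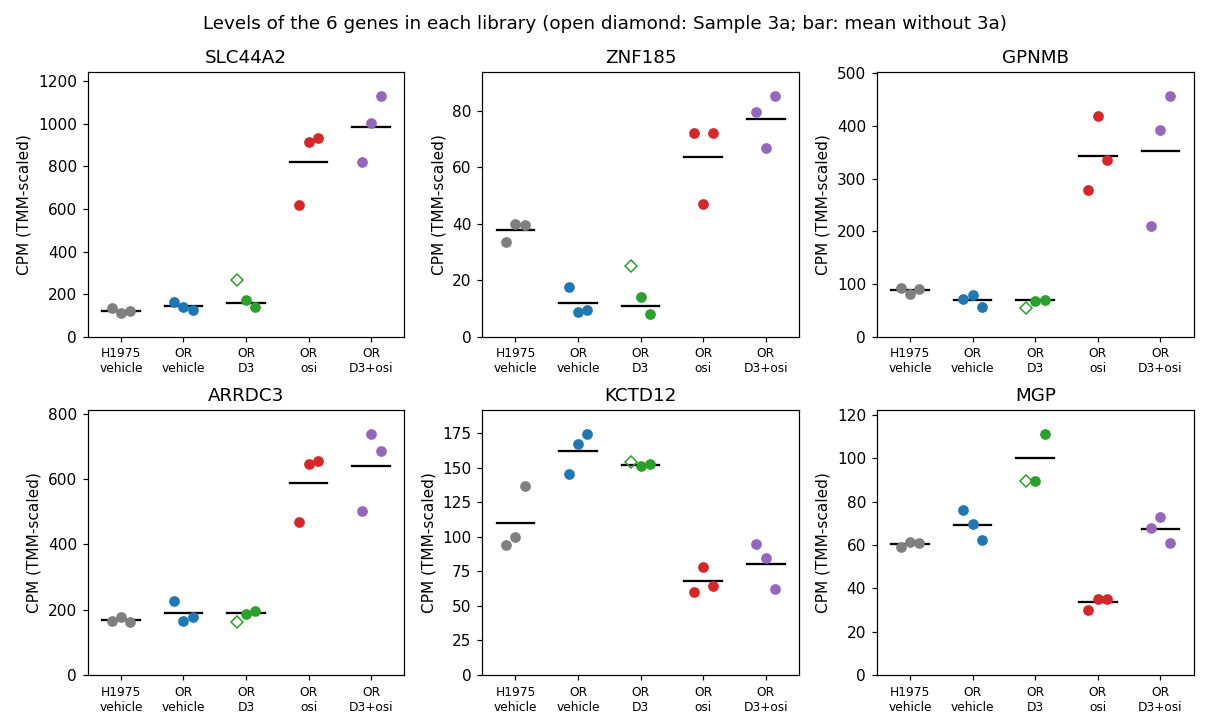
Level of each of the 6 genes in every library (vertical axis, TMM-scaled CPM from 0) over the 5 conditions (horizontal axis, OR for H1975–OR, D3 for 1,25(OH)2D3, osi for osimertinib). Points are libraries, bars are means without Sample 3a, and the open diamond is Sample 3a. SLC44A2, ZNF185, GPNMB, and ARRDC3 are higher in all 6 osimertinib libraries than in every H1975–OR library without it, KCTD12 is lower in them, and MGP is at 30.2 to 35.3 CPM with osimertinib alone but at 61.0 to 72.8 CPM with both agents.

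Of the higher genes, SLC44A2 had the highest level per length of transcript, at 243.6 CPM per kb with osimertinib against 42.3 with vehicle. In vehicle-treated H1975–OR it stood at 163.3, 141, and 124.0 CPM in Samples 2a, 2b, and 2c. With osimertinib it stood at 618, 916, and 932 CPM in Samples 4a, 4b, and 4c. The groups did not overlap, and Sample 4a was the lowest of the treated libraries, while under 1,25(OH)2D3 alone SLC44A2 was at 268 CPM in Sample 3a, 172 in 3b, and 141 in 3c. With both agents it was at 821, 1005, and 1131 CPM in Samples 5a, 5b, and 5c, every one above all libraries without osimertinib. In H1975 it lay between 111 and 134 CPM.

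ZNF185 had the lowest level per length of the 6 in vehicle-treated H1975–OR, at 2.61 CPM per kb. Its level was 17.6, 8.88, and 9.43 CPM in Samples 2a to 2c. With osimertinib it was at 72.2, 47.0, and 72.1 CPM in Samples 4a to 4c. Here Sample 4b, not 4a, was the lowest treated library, and Sample 2a was the highest vehicle library. Given 1,25(OH)2D3 alone it stood at 25.1, 14.2, and 7.98 CPM in Samples 3a to 3c, and with both agents at 79.7, 66.9, and 85.3 CPM in Samples 5a to 5c. ZNF185 also differed between the lines, since H1975 held 33.4, 40.1, and 39.6 CPM in Samples 1a to 1c, above every H1975–OR library without osimertinib and below every one with it.

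GPNMB stood at 72.3, 79.7, and 57.2 CPM in Samples 2a to 2c and at 279, 419, and 335 CPM in Samples 4a to 4c. Cells given 1,25(OH)2D3 alone held 54.5, 67.1, and 70.7 CPM in Samples 3a to 3c. With both agents it was at 210.1, 393, and 457 CPM in Samples 5a to 5c. Among the libraries with both agents it averaged 353 ± 128 CPM (SD, n = 3), the widest spread of the 6 genes relative to the mean (36.3%), and Sample 5a was the lowest of all libraries with osimertinib, still more than any without. In H1975 it lay between 81.0 and 92.6 CPM.

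ARRDC3 stood at 226, 166, and 176 CPM in Samples 2a to 2c and at 469.5, 645.5, and 654 CPM in Samples 4a to 4c. Under 1,25(OH)2D3 alone it was at 163, 188, and 195 CPM in Samples 3a to 3c. With both agents it was at 502, 738, and 686 CPM in Samples 5a to 5c. As for SLC44A2 and GPNMB, replicate a was the lowest library in both osimertinib groups. H1975 held between 163 and 179 CPM, inside the range of H1975–OR libraries without osimertinib when Sample 3a is counted. Without 3a the lowest of these was Sample 2b at 166.3 CPM, above Samples 1a (165.6) and 1c (163.2).

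KCTD12 was at 145, 167, and 174 CPM in Samples 2a to 2c and at 60.4, 78.1, and 64.5 CPM in Samples 4a to 4c. Its level under 1,25(OH)2D3 alone was 154, 151, and 153 CPM in Samples 3a to 3c, and with both agents at 94.7, 84.7, and 62.0 CPM in Samples 5a to 5c. Every library with osimertinib was below every H1975–OR library without it. H1975, at 94.3, 99.95, and 137 CPM, lay between, apart from Sample 5a, which at 94.7 CPM was above Sample 1a.

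MGP was at 76.0, 69.6, and 62.4 CPM in Samples 2a to 2c and at 30.2, 35.2, and 35.3 CPM in Samples 4a to 4c. The level was highest under 1,25(OH)2D3 alone, at 89.4, 89.5, and 111 CPM in Samples 3a to 3c, above every other library of the series. With both agents it was at 68.1, 72.8, and 61.0 CPM in Samples 5a to 5c, which overlapped vehicle-treated H1975–OR and H1975 (59.2 to 61.4 CPM). In a bulk sample, fewer cells that carry a transcript and less of it per cell cannot be told apart.

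In the comparison that chose the genes, osimertinib against vehicle, the log2 fold changes were 2.53 for SLC44A2 (standard error, SE, 0.20), 2.42 for ZNF185 (0.31), 2.31 for GPNMB (0.27), and 1.64 for ARRDC3 (0.19). They were −1.26 for KCTD12 (SE 0.17) and −1.04 for MGP (0.14). In linear terms SLC44A2 was 5.77-fold and ARRDC3 3.12-fold higher, while KCTD12 was at 0.418 and MGP at 0.486 of the vehicle level. The 6 were all the genes with an adjusted p under 0.05 among 12503 tested, which is 0.048% of them, and nothing can be read from that count, since it is the rule itself. All 6 had groups that did not overlap, as had 12.8% of the genes tested, which too follows from the choice. The adjusted p that chose them was 0.00140 for SLC44A2, 0.0240 for GPNMB and ARRDC3, and 0.0407 for ZNF185, KCTD12, and MGP, just inside the limit. Just outside lay the amino acid transporter SLC43A2 at 0.0620 (log2 fold change 1.38), and among the next were MYBL1 (−0.80), TNFRSF1A (2.14), and XPO1 (0.97), all at 0.0814. With the replicate letter as a block, in groups whose letters did pair, 35 genes were under the limit in place of 6.

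**Figure D2:**
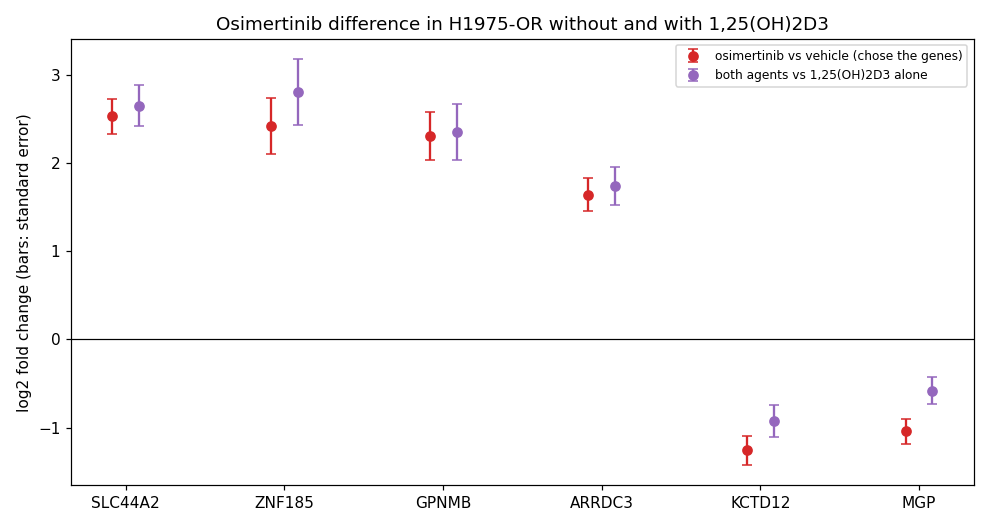
Log2 fold change of each gene (vertical axis, bars are standard errors) for osimertinib against vehicle, which chose the genes, and for both agents against 1,25(OH)2D3 alone, in the 11 H1975–OR libraries other than Sample 3a. SLC44A2, ZNF185, GPNMB, and ARRDC3 lie above 0 and KCTD12 and MGP below it in both comparisons, with MGP at −1.04 and −0.58.

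Both agents against 1,25(OH)2D3 alone gives the osimertinib difference in libraries that did not enter the choice. The spread, though, was estimated over all 11 libraries, those of the choice included. Deviations from the group means also correlated within a letter, at 0.26 to 0.46 for osimertinib with both agents. For vehicle with 1,25(OH)2D3 these correlations were 0.19 to 0.34. The comparison is thus not independent of the choice. In it SLC44A2, ZNF185, GPNMB, and ARRDC3 rose, and neither KCTD12 nor MGP passed the threshold. In edgeR's quasi-likelihood test, with p-values adjusted by Benjamini-Hochberg over 12503 genes, the log2 fold change of SLC44A2 was 2.65 (SE 0.23, adjusted p = 0.00443), or 6.26-fold, with the smallest p of all genes. ARRDC3 rose by 1.74 (0.22, edgeR adjusted p = 0.0277), ZNF185 by 2.80 (0.37, adjusted p = 0.0277), and GPNMB by 2.35 (0.32, adjusted p = 0.0279). The value for KCTD12 was −0.92 (95% interval −1.33 to −0.52, edgeR adjusted p = 0.0828) and for MGP −0.58 (−0.92 to −0.25, adjusted p = 0.166). These 4 of 6 stand beside 32 genes called among all tested, 0.256%, of which 15 were higher and 17 lower. The groups did not overlap for any of the 6, as for 29.7% of all genes without Sample 3a and 12.7% with it.

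The direction of the 6 held in every alternative run for both agents against 1,25(OH)2D3 alone, while the calls moved with the libraries used. With Sample 3a kept in, SLC44A2 was 5.06-fold higher and SLC44A2, GPNMB, and ARRDC3 had an adjusted p of 0.00689 by edgeR, while that of ZNF185 was 0.0556. When the spread came from the compared libraries alone, SLC44A2 was the single gene of the 6 under the limit (edgeR adjusted p = 0.0399), and ARRDC3 (0.0622), ZNF185 (0.0565), and GPNMB (0.113) were past it. Without Sample 3b or without Sample 3c none of the 6 was called, and without 5b or without 5c SLC44A2 alone was. DESeq2 called all 6. Over these alternatives the adjusted p of SLC44A2 ran from 2.32e-28 with DESeq2 to 0.126 with edgeR without Sample 3c.

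Within a replicate letter, the higher genes had their smallest osimertinib-to-vehicle ratio in replicate a. For SLC44A2 the ratios were 3.78, 6.50, and 7.51 in letters a, b, and c, for GPNMB 3.85, 5.26, and 5.86, for ARRDC3 2.08, 3.88, and 3.71, and for ZNF185 4.11, 5.30, and 7.64. For KCTD12 they were 0.415, 0.468, and 0.370, and for MGP 0.397, 0.505, and 0.566. Each gene had the same direction in all 3 letters.

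The difference between the osimertinib effects with and without 1,25(OH)2D3 contains the comparison that chose the genes and is a description. It was 0.46 (SE 0.21) on the log2 scale for MGP, 0.34 (0.25) for KCTD12, and 0.38 (0.46) for ZNF185. For SLC44A2, ARRDC3, and GPNMB it was 0.12 (0.28), 0.10 (0.27), and 0.04 (0.39), within the standard errors. Over all 12503 genes, 0 had an adjusted p under 0.05 for this difference by edgeR, while 153 were higher and 177 lower at an unadjusted p under 0.05. Kept in, Sample 3a turned the value for SLC44A2 to −0.19 and that for ZNF185 to −0.13. The ZNF185 value was −0.00297 without Sample 2a and 0.85 without Sample 3b, and that of MGP was 0.31 without Sample 3b and 0.62 without Sample 3c.

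1,25(OH)2D3 went with a higher level of MGP. It was higher by 0.53 on the log2 scale (SE 0.15) with 1,25(OH)2D3 against vehicle and by 0.99 (0.14) with both agents against osimertinib. The other 5 genes differed by between −0.12 and 0.14 against vehicle and by between 0.03 and 0.27 against osimertinib. Kept in, Sample 3a moved SLC44A2 to 0.44 and ZNF185 to 0.40 against vehicle. As each of these comparisons shares libraries with the choice of genes, the 2 were averaged, which cancels the osimertinib-to-vehicle difference. This average was chosen after seeing the data, and its spread rests on the same libraries. Its p-values and intervals are thus not independent of the choice of genes or of the comparison.

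In the average, MGP rose by 0.76 on the log2 scale with 1,25(OH)2D3 (SE 0.10, 95% interval 0.54 to 0.99, edgeR adjusted p = 0.0154), or 1.70-fold. It was 1 of 6 called, beside 46 of 12503 genes, 0.368%. With Sample 3a the value was 0.74 (edgeR adjusted p = 0.0108), and with the replicate block it was 0.77 (adjusted p = 0.0144), where 168 genes were called in place of 46. Without Sample 3c it was 0.68 and no longer passed (edgeR adjusted p = 0.0888), the highest adjusted p over its alternatives, of which DESeq2 gave the lowest, 1.11e-07. The other 5 were not called, and their 95% intervals were −0.11 to 0.50 for SLC44A2, −0.44 to 0.59 for ZNF185, −0.43 to 0.44 for GPNMB, −0.24 to 0.37 for ARRDC3, and −0.20 to 0.35 for KCTD12. The test thus leaves room for changes of up to 0.59 in these genes.

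**Figure D3:**
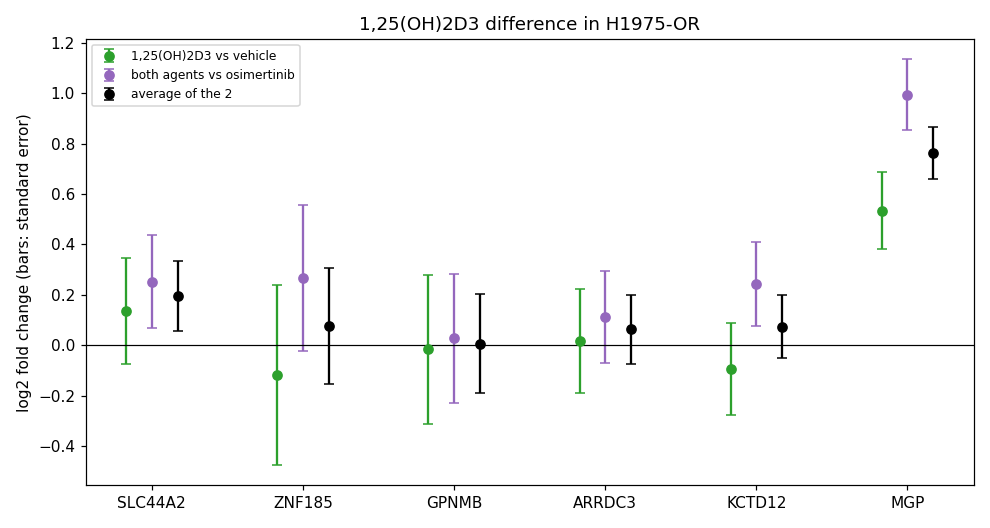
Log2 fold change with 1,25(OH)2D3 (vertical axis, bars are standard errors) in H1975–OR cells without osimertinib, with osimertinib, and on average. MGP is at 0.53, 0.99, and 0.76, while the other 5 genes lie between −0.12 and 0.27.

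Against H1975, the 6 genes fell into different orders. With both agents, SLC44A2 rose to 8.12-fold the H1975 level (log2 fold change 3.02, standard error 0.19, edgeR adjusted p = 1.91e-06), GPNMB by 2.01 (0.25, adjusted p = 0.000166), ARRDC3 by 1.92 (0.18, adjusted p = 2.53e-05), and ZNF185 by 1.04 (0.27, adjusted p = 0.0138). KCTD12 was at −0.45 (SE 0.18, edgeR adjusted p = 0.0812) and MGP at 0.15 (0.13, adjusted p = 0.417), with overlapping groups. So 4 of 6 were called, where 27.2% of the 12819 genes tested were. The fit with H1975 also held the libraries of the choice, and letters paired both agents with osimertinib and with vehicle. This comparison too is thus not independent of the choice, and nothing particular to the 6 is read from the count. Without Sample 1a the call of ZNF185 was lost (0.95, edgeR adjusted p = 0.0513), and without Sample 5a KCTD12 was called too (−0.60, edgeR adjusted p = 0.0382).

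Between cells given 1,25(OH)2D3 alone and H1975, neither of which had osimertinib added, 2 of the 6 differed, beside 18.3% of all genes, and nothing particular to the 6 is read from that count. ZNF185 was lower by a log2 fold change of −1.77 (SE 0.33, edgeR adjusted p = 0.00364), and MGP was higher by 0.73 (0.14, adjusted p = 0.00422). With Sample 3a, ZNF185 was at −1.25 (edgeR adjusted p = 0.0247) and MGP at 0.67 (adjusted p = 0.00384). Without Sample 3c neither passed, at adjusted p of 0.0596 and 0.0765 by edgeR. SLC44A2 (0.37), GPNMB (−0.35), ARRDC3 (0.18), and KCTD12 (0.46) were not called.

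The vehicle-treated and osimertinib-treated H1975–OR groups set the choice, so their values against H1975 are a description. With vehicle, ZNF185 was at −1.65 on the log2 scale (SE 0.29) and KCTD12 at 0.56 (0.18), and the other 4 lay between −0.34 and 0.23. With osimertinib, SLC44A2 was at 2.76, GPNMB at 1.97, ARRDC3 at 1.80, and ZNF185 at 0.76, while KCTD12 was at −0.70 and MGP at −0.85. ZNF185, GPNMB, and KCTD12 were thus on opposite sides of the H1975 mean with vehicle and with osimertinib, as was MGP (0.20 with vehicle).

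**Figure D4:**
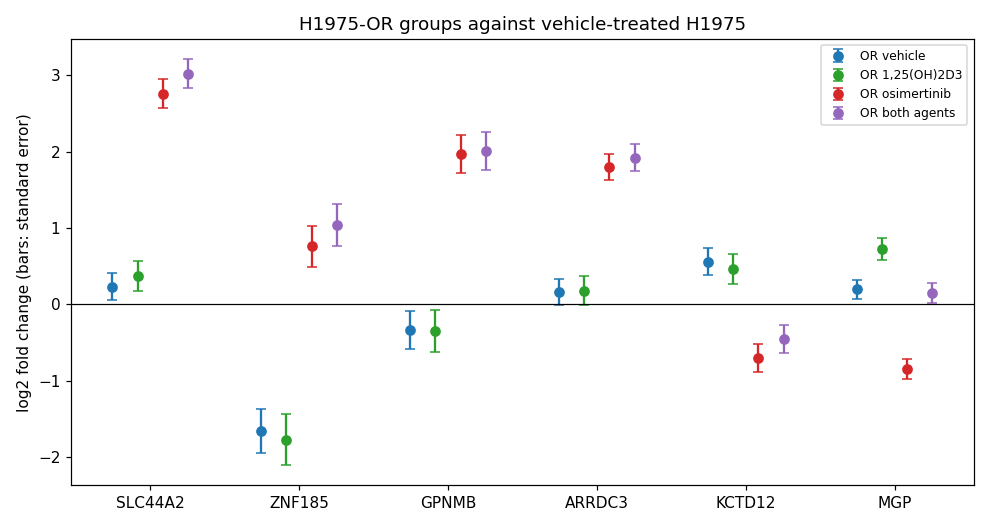
Log2 fold change of each gene in the 4 H1975–OR groups against vehicle-treated H1975 (vertical axis, bars are standard errors), in one fit of 14 libraries. ZNF185 is at −1.65 with vehicle and at 1.04 with both agents, MGP is at −0.85 with osimertinib and at 0.15 with both agents, and SLC44A2 reaches 3.02.

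Across the 14 libraries, SLC44A2 and ARRDC3 had a Pearson correlation of log2(CPM + 2) of 0.991, GPNMB one of 0.964 with SLC44A2 and of 0.965 with ARRDC3. Within the groups, after the group means were taken off, these were 0.751, 0.722, and 0.674. ZNF185 had a correlation within groups of at most 0.173 with any of the other higher genes, and KCTD12 and MGP had 0.264 with each other. These points share libraries, letters, and depth, and the correlations are descriptions.

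The genes outside the 6 most like SLC44A2, by the same correlation among 9418 genes of at least 10 CPM, were ZNF763 (0.977), ZNF844 (0.964), and SDSL (0.961), and these 3 were also the nearest of those genes to GPNMB and to ARRDC3. ZNF763 and ZNF844 encode zinc finger proteins of a large family with similar sequences, so shared reads make their counts less certain. ZNF763 went from 9.35 CPM with vehicle to 27.5 CPM with osimertinib. With both agents against 1,25(OH)2D3 alone ZNF763 rose by 1.96 on the log2 scale, SDSL by 1.42, and ZNF844 by 1.23. The nearest genes were picked by correlation over these same libraries, so these values are descriptions. ZNF185 was nearest to XPO1 (0.956), the nuclear export receptor, then to PRRG4 (0.880) and PHYH (0.878). XPO1 stood at 276 CPM with vehicle, 539 with osimertinib, 247 with 1,25(OH)2D3 alone, 614 with both agents, and 395 in H1975. Its log2 fold change with both agents against 1,25(OH)2D3 alone was 1.31, also a description. For KCTD12 the nearest were MYBL1 (0.880), ERRFI1 (0.870), and WWTR1 (0.862), and for MGP they were DPYD (0.858), MB (0.806), and SLC30A1 (0.801).

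Around the 6 genes, 11 lists of relatives and partners held 152 other genes, of which 124 were tested. With osimertinib against vehicle 0 of the 124 passed by edgeR, with 3 higher and 15 lower at an unadjusted p under 0.05, while DESeq2 called 4. With the replicate letter as a block, edgeR called 3, PRRG4 (1.42, adjusted p = 0.0435), ERRFI1 (−1.38, adjusted p = 0.0435), and RRAGD (1.58, adjusted p = 0.0318), a lysosomal GTPase of the MITF/TFE list. With both agents against 1,25(OH)2D3 alone 2 passed by edgeR, 7 with the block, whose letters do not pair those groups, and 11 by DESeq2. Of the 2 without the block, the higher one is PRRG4, a transmembrane Gla protein of the vitamin K list around MGP, which went from 15.8 ± 2.01 CPM with vehicle (SD, n = 3) to 42.2 ± 4.00 with osimertinib, and from 12.3 with 1,25(OH)2D3 alone to 47.9 with both agents. In the latter pair it rose by 1.95 on the log2 scale (SE 0.28, edgeR adjusted p = 0.0368). The lower one is ERRFI1, an inhibitor that binds EGFR, which went from 321 ± 120 CPM with vehicle (SD, n = 3) to 118 ± 9.84 with osimertinib. It fell by 1.73 on the log2 scale with both agents against 1,25(OH)2D3 alone (SE 0.26, edgeR adjusted p = 0.0392). With Sample 3a kept in neither passed, nor did any other of the 124 (0 by edgeR).

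**Figure D5:**
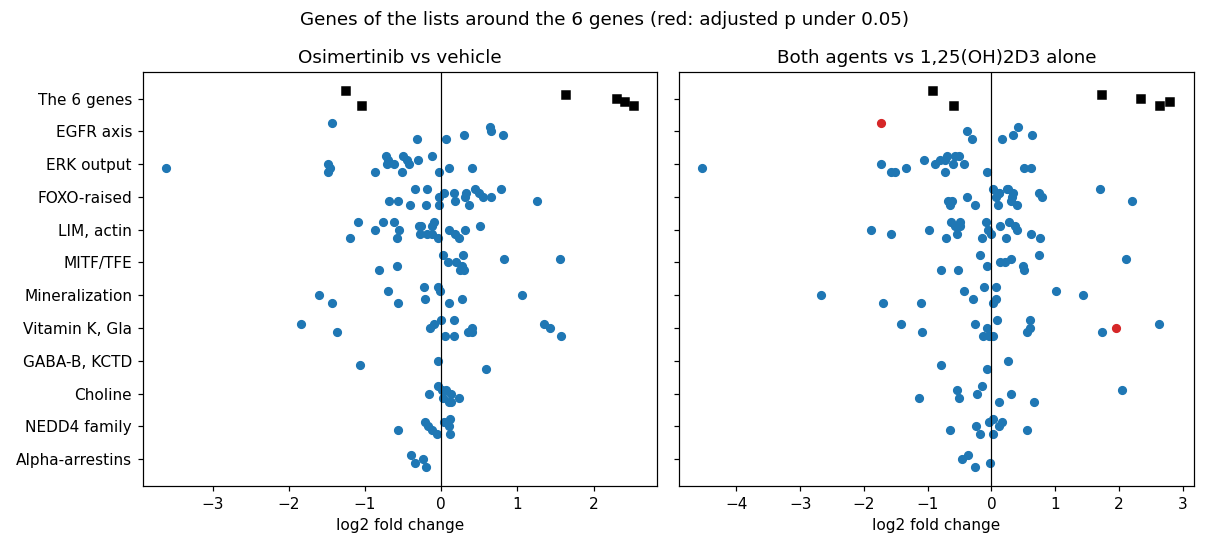
Log2 fold change (horizontal axis) of the tested genes of 11 lists around the 6 genes, and of the 6 genes themselves as black squares, for osimertinib against vehicle (left) and both agents against 1,25(OH)2D3 alone (right). Each point is a gene, and red marks an adjusted p under 0.05, which PRRG4 and ERRFI1 have in the right panel.

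Among the relatives of ARRDC3, all 4 tested alpha-arrestins had a log2 fold change below 0 with osimertinib, with a median of −0.29 where that of all genes was 0.01, and 0 were called by edgeR, with or without the block, or by DESeq2. TXNIP, which binds thioredoxin and limits glucose uptake, was at 1221 ± 279 CPM with vehicle and 1059 ± 184 with osimertinib (SD, n = 3 each), and ARRDC2 averaged 54.3 and 46.0 CPM. The 9 NEDD4-family ligases had a median of −0.06, ITCH, the most abundant, standing at 242 ± 9.29 CPM with vehicle and 213 ± 14.1 with osimertinib, and SMURF1 at 76.7 ± 11.9 and 82.6 ± 11.5 (SD, n = 3 each). Among 9 tested genes of choline transport and use, around SLC44A2, the median was 0.06, and its relative SLC44A1 stood at 140.3 CPM with vehicle and 153 CPM with osimertinib, against the 143 and 822 CPM of SLC44A2. PCYT1A, an enzyme of phosphatidylcholine synthesis, stood at 80.1 and 77.6 CPM.

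The MITF/TFE list around GPNMB had 9 of 11 tested genes above 0 with osimertinib, with a median of 0.24. By edgeR 0 were called without the block, and RRAGD was called with it. The 2 below 0 were the factors MITF (−0.81, SE 0.34) and TFEB (−0.58, 0.50), while the factor TFE3 was at 0.09 (0.49). MITF averaged 42.0 CPM with vehicle and 23.8 with osimertinib, and TFEB 14.8 and 9.88 CPM. SQSTM1, an autophagy receptor, was at 328 ± 31.8 CPM with vehicle and 375 ± 97.8 with osimertinib, and FLCN, a regulator of TFE factors, at 64.4 ± 10.6 and 78.7 ± 5.41 (SD, n = 3 each). Of the pigment genes PMEL, MLANA, TYR, DCT, and TYRP1, PMEL averaged the most, at 1.13 CPM, and TYR was at 0. Of 20 LIM-domain and actin-associated genes around ZNF185, 15 were below 0, with a median of −0.23 and 0 called. ABLIM1 was at 300.5 ± 103 CPM with vehicle and 291 ± 76.5 with osimertinib, and LIMA1 at 222 ± 41.0 and 184 ± 78.6 (SD, n = 3 each).

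Of the partners of KCTD12, only 3 of 8 were tested, with GABBR2, a GABA-B receptor subunit, at 5.68 ± 2.66 CPM with vehicle and 8.57 ± 8.24 with osimertinib (SD, n = 3 each), KCNJ3 at 4.08 and 1.94 CPM, and GABBR1 averaging 1.12 CPM over the libraries. The mineralization list around MGP had 8 of 11 tested genes below 0, with a median of −0.21 and 0 called. BMP2, a ligand that MGP binds, was at 83.7 ± 35.7 CPM with vehicle and 82.5 ± 41.1 with osimertinib, and NOG, a BMP antagonist, at 86.0 ± 43.4 and 57.9 ± 11.5 (SD, n = 3 each). In the vitamin K list, 9 of 14 were above 0, with a median of 0.17.

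Of 18 genes known to be raised downstream of ERK, 16 were below 0 with osimertinib, with a median of −0.57, and the median was −0.73 with both agents against 1,25(OH)2D3 alone. By edgeR without the block 0 were called in either. With the block 0 were called for osimertinib against vehicle and 2 for both agents against 1,25(OH)2D3 alone. Letters do not pair the latter groups. These 2 were the ERK phosphatases DUSP4 (−1.55, edgeR adjusted p = 0.0386) and DUSP5 (−1.61, adjusted p = 0.0429). Without the block their edgeR adjusted p was 0.0537 and 0.179. DESeq2 called 1 and 3 of the 18 in these comparisons. CCND1, cyclin D1, was at 718 ± 395 CPM with vehicle and 440 ± 157 with osimertinib, and MYC at 657 ± 179 and 399 ± 116 (SD, n = 3 each). The 20 genes raised by FOXO factors had a median of 0.18 with osimertinib, with 12 above and 8 below 0. Without the block edgeR called 0 of the 20 in either comparison. For both agents against 1,25(OH)2D3 alone CCNG2 then had an edgeR adjusted p of 0.0537. With the block, whose letters do not pair those groups, CCNG2 was called there (2.27, edgeR adjusted p = 0.0129). DESeq2 called 1 in each comparison, CCNG2 (1.25, adjusted p = 0.0356, and 2.21, adjusted p = 7.06e-06). CCNG2 averaged 20.8 CPM with vehicle and 49.5 with osimertinib, and 13.1 with 1,25(OH)2D3 alone and 60.7 with both agents. Beside TXNIP the most abundant of the 20 was CITED2, at 214 ± 40.7 CPM with vehicle and 161 ± 22.7 with osimertinib (SD, n = 3 each). EGFR itself was at 152 ± 42.1 CPM with vehicle and 121 ± 21.9 with osimertinib (SD, n = 3 each). Of the 7 genes of the EGFR list, 5 were above 0 with osimertinib and 2, EGFR and ERRFI1, below, with a median of 0.30. ERBB2 averaged 123 CPM with vehicle and 216 with osimertinib (0.82, SE 0.41), and was not called by edgeR.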

How the data were processed

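RNA was sequenced from 15 libraries of H1975 and H1975–OR cells, 3 in each of 5 groups, as stranded total RNA. The authors used kallisto to assign reads to transcripts of hg38, and tximport for sums per gene, and the deposited values are estimated counts per gene, not scaled. The submitters' processing notes name CASAVA 1.8.2, STAR 2.5.2b, and kallisto 0.43.0. Rounded to whole numbers, they were tested in R 4.3.3 by edgeR 4.0.16, using filterByExpr by group (minimum count 10, minimum total 15), TMM scaling, and its quasi-likelihood test, with Benjamini-Hochberg adjusted p-values and a threshold of 0.05. One fit held the 11 H1975–OR libraries other than Sample 3a (12503 genes), another those and H1975 (14 libraries, 12819 genes). The p-values measure the spread between passages of 1 line. Depth was 4378033 to 6140025 counts per library, and 95% intervals of fold changes come from the fits.

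The 6 genes were chosen with earlier results of these data known, and so were the gene lists, which were written from general knowledge. Named genes were the 6, the 3 most correlated with each, and of each list the called genes or else the 2 most abundant. GABBR1, the pigment genes, TNFRSF1A, SLC43A2, EGFR, ERBB2, RRAGD, MITF, TFEB, TFE3, CCNG2, DUSP4, DUSP5, and the marker genes were named after their values were seen. Alternatives were RLE factors, DESeq2 1.42.0, other count filters, Sample 3a kept in, a replicate block, other sets of libraries, and each library left out. The average of the 1,25(OH)2D3 effects was chosen after seeing the data. Letters were taken to pair groups where every same-letter correlation of deviations was over 0.1, which held for vehicle with each other H1975–OR group and for osimertinib with both agents, but not for 1,25(OH)2D3 with both agents (0.03 to 0.30), for 1,25(OH)2D3 with osimertinib, or for any group with H1975. On simulated counts with 200 changed genes, 134 were recovered with 5 false calls for both agents against 1,25(OH)2D3 (12296 genes), and 121 with 3 for 1,25(OH)2D3-treated H1975–OR against H1975 (12588 genes). Gene positions came from GENCODE release 44 and promoters from RefSeq.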

Additional observations from a re-analysis of the deposited data

How the results depend on the processing

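No value of the 6 genes reversed among the alternatives where it had been called. For both agents against 1,25(OH)2D3 alone, 32 genes were called, and 329 with DESeq2, 12 with Sample 3a kept in, 71 with all 14 libraries in one fit, and 9 with the compared groups alone, where 1 of the 6 genes was called in place of 4. With the replicate block, whose letters do not pair those groups, 183 genes were called and the same 4 of the 6 passed. Leaving out a library gave 0 to 11 genes and 0 to 3 of the 6. For osimertinib against vehicle the count of 6 was 117 with DESeq2, 35 with the replicate block, 12 with all 14 libraries, 2 with the compared groups alone, and 1 to 29 with a library left out, 29 without Sample 2a. For 1,25(OH)2D3-treated H1975–OR against H1975, leaving out a library gave 862 to 2064 genes, in place of 2340, and 0 to 2 of the 6. For the average 1,25(OH)2D3 effect, 46 genes became 197 with DESeq2, 168 with the replicate block, and 11 to 46 with a library left out, and 0 to 1 of the 6 were called. With 1,25(OH)2D3 against vehicle, 3 of the 6 were above 0, and 5 without Sample 2a. The difference between osimertinib effects was above 0 for all 6, and for 3 of 6 without Sample 4a. The causes were not tested. The replicate block changed no other call among the 6 genes. For both agents against H1975, 3 to 5 of the 6 were called with a library left out. Of the genes on the lists, the block called 3 in place of 0 for osimertinib against vehicle and 7 in place of 2 for both agents against 1,25(OH)2D3 alone. The libraries come from 1 resistant line, with 2 for 1,25(OH)2D3 alone in the fits, and held 4378033 to 6140025 counts. The effect of depth on the calls was not tested.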
